A study of Mus musculus with 12 samples.

Results

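Potassium channel genes were followed through the cortex of Grin1 knockdown mice, of knockdown mice with Cre rescue and of wild type mice. Members were all gene models whose symbol begins with Kcn followed by letters and a digit, and which the authors' Cuffdiff run could test. The rule took 89 of 18417 tested models for knockdown against wild type, 89 of 18430 for rescue against knockdown and 91 of 18429 for rescue against wild type. They stand for 77 genes in 20 subfamilies, and all 77 were tested in each of the 3 tables. A further 20, 21 and 21 models with such symbols were not tested in those tables, and none of these exceeded 0.265 FPKM in a group. The symbols cover channel pores, silent subunits, auxiliary proteins and Kcnq1ot1, a long noncoding RNA that encodes no channel.

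The study compared frontal cortex of 12 male mice aged 14 weeks, 4 per group. The rescue mice carry the label GluN1Cre, the knockdown mice GluN1 and the wild type mice WT; all are C57Bl/6 and 129/SvlmJ F1 hybrids. Every animal, wild type included, was given tamoxifen starting at 10 weeks of age, with 6 mg delivered by gavage and roughly 14 mg eaten in chow over 2 weeks, so no group was free of the drug. The labels name neither the promoter that drives Cre nor the modified Grin1 allele, and the group names give Cre to the rescue mice alone, so effects of Cre and of restored Grin1 cannot be told apart. Poly(A) RNA was sequenced, and each group is given as 1 FPKM value, a fragment count adjusted for the length of the transcript and the size of the library. No spread between animals and no read depth accompany these values, and all p and q below are those of the authors' test. A model is said to have risen or fallen where p was under 0.05 and q under 0.10, the study's own threshold.

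Potassium channels let potassium leave or enter the cell along its gradient and so set the resting potential, the shape of the action potential and the firing rate of neurons. Voltage-gated (Kv) channels open on depolarisation, inward rectifiers and two-pore-domain channels carry current near rest, and calcium- or sodium-activated channels follow the ions that enter during firing. Silent Kv subunits form no channel alone but join other Kv subunits, and auxiliary proteins change the gating or trafficking of the pores they bind. In cortical tissue the inward rectifier Kcnj10 is known chiefly from astrocytes, and most other abundant members from neurons.

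Grin1, which encodes the obligatory subunit of NMDA-type glutamate receptors, lay at 56.7 FPKM in knockdown against 138 FPKM in wild type (q = 0.00456 in the authors' deposited table), and at 86.7 FPKM in rescue against 65.7 FPKM in knockdown. The labelled tissue carried its markers: 10 markers of excitatory cortical neurons summed to 1487 FPKM in knockdown and 1650 FPKM in wild type. Of these 10, 9 had negative folds, with a median log2 fold of -0.13, and 1, Fezf2, was called (log2 fold -0.42). In the rescue comparison the 10 markers summed to 1565 FPKM in rescue and 1497 FPKM in knockdown. There 9 of the 10 had positive folds, with a median of 0.09, and 0 were called. Markers of other regions were present as well. Of 12 tested models of olfactory bulb markers, 10 rose in knockdown, with a summed level of 123 FPKM against 43.7 FPKM in wild type. Of 13 tested models of striatal medium spiny neuron markers 6 fell, with sums of 186 FPKM in knockdown and 219 FPKM in wild type. Of 10 interneuron markers 6 rose, with 1013 FPKM in knockdown and 763 FPKM in wild type. Of their log2 folds 7 were positive and 3 negative, Lhx6 at -0.28, Pvalb at -0.05 and Vip at -0.03. Sst alone had 452 FPKM in knockdown and 342 FPKM in wild type. Of 7 thalamic or hypothalamic models 2 rose, Trh and Calb2; Calb2, at 46.9 FPKM in knockdown and 18.4 FPKM in wild type, is in the interneuron list as well. Rora, Tcf7l2 and Prkcd of the same list had log2 folds of 0.06, 0.05 and 0.19 and were not called. Avp and Oxt, not called either, had larger log2 folds of 2.37 and 1.63 at low levels. Avp had 1.61 FPKM in knockdown and 0.312 FPKM in wild type, and Oxt 0.750 FPKM in knockdown and 0.242 FPKM in wild type. All 7 folds of this list were positive, with a median of 1.35. Vascular and meningeal lists had positive medians: 3 of 10 meningeal fibroblast models rose (median log2 fold 0.36), 1 of 10 pericyte or smooth muscle models (0.18) and 0 of 9 endothelial models by Cuffdiff, with 3 at an unadjusted p under 0.05 (0.15). No marker in these lists was at 0 in both groups, and their part in the results below was not tested. In bulk tissue, fewer cells of a type and less RNA per cell cannot be told apart.

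In the knockdown cortex 10 of the 89 potassium channel models passed the test against wild type, 7 lower and 3 higher. Those that fell were the M-current subunits Kcnq3 and Kcnq5, the Kv channel Kcnh3, the silent subunit Kcnv1, the two-pore-domain channel Kcnk2, the Kv beta subunit Kcnab1 and the BK channel beta subunit Kcnmb4. These falls were alike in size, with log2 folds between -0.31 and -0.26. Those that rose were Kcnk15, a two-pore-domain subunit of the TASK type, by 2.01 on the log2 scale, Kcnab3 by 0.31 and Kcnj10 by 0.27. The called members made up 11.2% of the tested members, against 2.52% of all tested models. Members called lower were 7 of 89 where 0.858% of all models were called lower, and members called higher were 3 of 89 where 1.66% of all models were called higher.

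**Figure D1:**
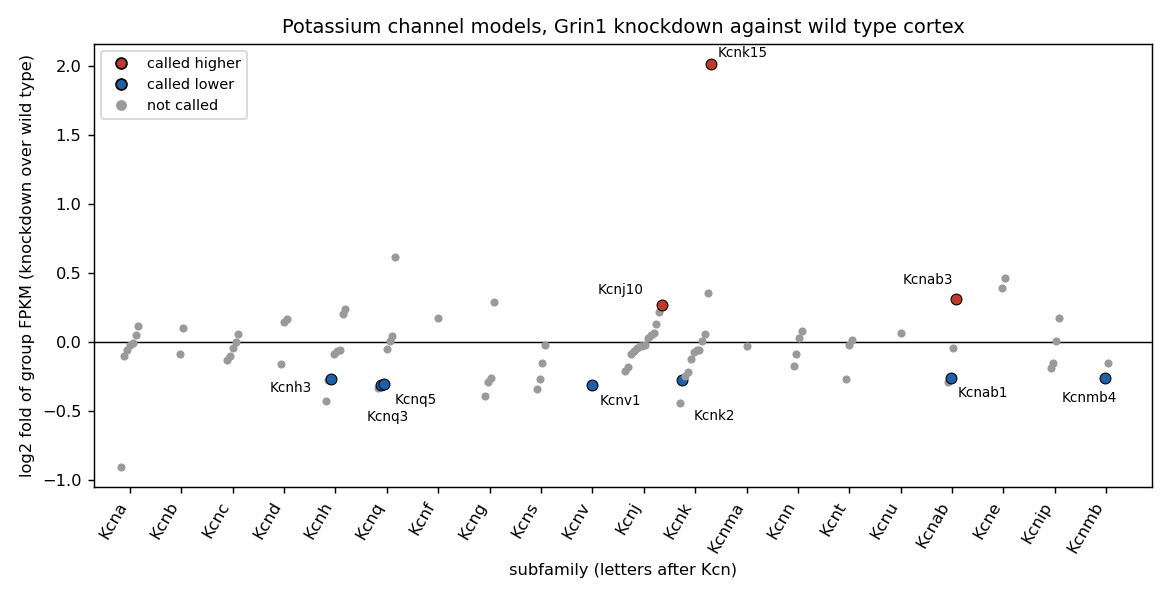
Log2 fold of group FPKM, knockdown over wild type (vertical axis), of the 89 tested potassium channel models by subfamily; each point is a model, red for called higher, blue for called lower and grey for not called. The 7 blue points lie between -0.31 and -0.26, and Kcnk15 at 2.01 stands above all other members.

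Of the 89 log2 folds 32 were positive and 57 negative, with a median of -0.05, beside a median of -0.0033 over all 18417 models. Summed over all members, the knockdown had 1523 FPKM and the wild type 1579 FPKM. With a minimum mean of 1 FPKM, 10 of 80 members were called, against 2.67% of all such models. At an unadjusted p under 0.05 there were 25 members, 9 higher and 16 lower, or 28.1% of members against 7.91% of all models. Apart from Kcnk15 at a mean of 1.32 FPKM, the models called had means above 16 FPKM. Among models with a mean of at least 10 FPKM, a limit chosen after the data were seen, 9 of 41 members were called, against 2.23% of all such models.

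**Figure D2:**
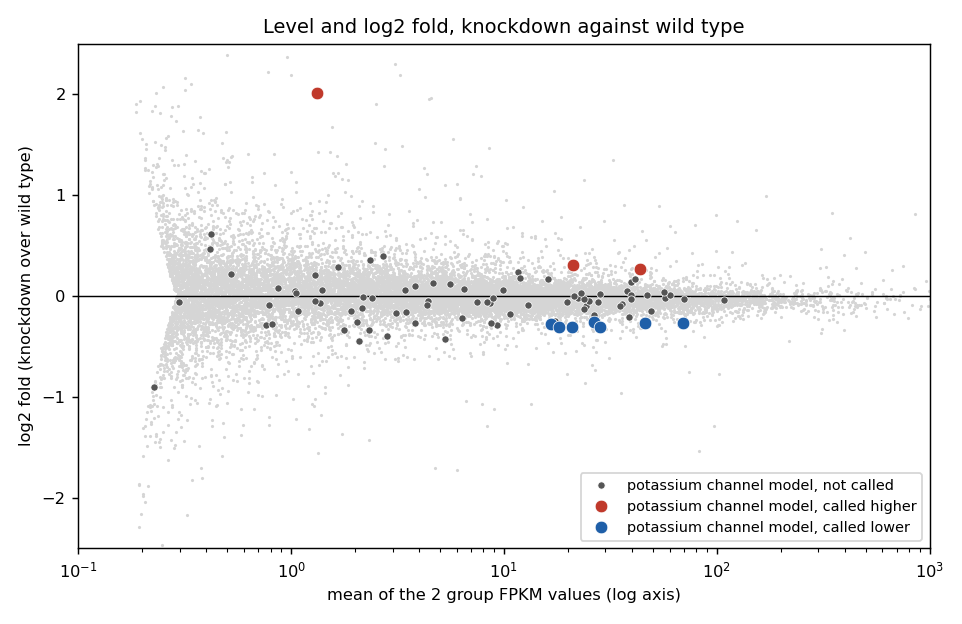
Log2 fold, knockdown over wild type, against the mean of both group FPKM values on a log axis; pale points are 18396 of the 18417 tested models (those within 2.5 log2 units), dark points members not called, red and blue points members called. All called members but Kcnk15, at 1.32 FPKM, lie to the right of 16 FPKM.

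The 10 genes lie on 6 chromosomes. For 4 of them the RefSeq start site coincides with the start of the authors' assembled model, and the promoters of these 4 are shown because they mark where the measured transcripts begin, for 2 genes that rose and 2 that fell. Each window runs from 250 bases before the start to 50 bases after it on the gene's strand, taken from RefSeq on GRCm38.p6. Kcnk15 is at chr2:163853500-163853799 on the plus strand, Kcnj10 at chr1:172340960-172341259 on the plus strand, Kcnmb4 at chr10:116473474-116473773 on the minus strand and Kcnq5 at chr1:21961893-21962192 on the minus strand. Capitals mark the GC box GGGCGG on either strand, that is, GGGCGG or CCGCCC, with overlapping matches counted separately.
Kcnk15: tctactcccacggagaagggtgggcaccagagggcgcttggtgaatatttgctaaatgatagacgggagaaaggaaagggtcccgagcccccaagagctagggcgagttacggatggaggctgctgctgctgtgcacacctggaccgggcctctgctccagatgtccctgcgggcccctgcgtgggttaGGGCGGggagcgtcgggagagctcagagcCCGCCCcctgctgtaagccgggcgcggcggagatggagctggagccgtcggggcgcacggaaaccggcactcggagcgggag
Kcnj10: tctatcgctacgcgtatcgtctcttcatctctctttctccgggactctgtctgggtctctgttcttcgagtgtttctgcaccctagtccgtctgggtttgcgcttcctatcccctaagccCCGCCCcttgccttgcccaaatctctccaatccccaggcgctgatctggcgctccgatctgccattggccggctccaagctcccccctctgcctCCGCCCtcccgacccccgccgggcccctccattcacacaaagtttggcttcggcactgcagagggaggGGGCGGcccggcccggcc
Kcnmb4: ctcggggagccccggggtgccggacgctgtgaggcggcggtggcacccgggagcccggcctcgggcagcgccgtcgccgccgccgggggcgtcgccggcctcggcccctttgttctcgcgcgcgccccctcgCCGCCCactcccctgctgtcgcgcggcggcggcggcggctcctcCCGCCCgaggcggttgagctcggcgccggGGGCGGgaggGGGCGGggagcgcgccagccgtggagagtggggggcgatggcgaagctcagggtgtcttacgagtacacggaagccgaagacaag
Kcnq5: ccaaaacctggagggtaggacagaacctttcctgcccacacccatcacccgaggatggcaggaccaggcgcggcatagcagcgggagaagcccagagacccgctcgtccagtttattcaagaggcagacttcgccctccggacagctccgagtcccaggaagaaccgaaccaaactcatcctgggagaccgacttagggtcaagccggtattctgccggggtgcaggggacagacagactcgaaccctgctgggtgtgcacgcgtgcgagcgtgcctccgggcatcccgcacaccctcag
All 4 windows held at least as many CpG as the upper quartile of all windows, with 24 CpG in Kcnk15, 21 in Kcnj10, 48 in Kcnmb4 and 20 in Kcnq5, beside a median of 7 over all 32851 promoter windows of the same length. GC boxes numbered 2 in Kcnk15, 3 in Kcnj10 and 4 in Kcnmb4, and Kcnq5 had 0. A GC box was present in 35.7% of all windows and in 49.4% of the 77 windows that belong to 54 of the member genes. The palindromic CRE, TGACGTCA, was found in none of the 77 member windows and in 1.79% of all windows. At that share few of 77 windows would hold it, so its absence cannot be told from the overall share.

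Among Kv pore-forming subunits 3 of 31 models fell and 0 rose, with a median log2 fold of -0.06. The M-current, a slow potassium current that restrains repetitive firing, is carried by channels of the Kcnq subfamily, Kcnq3 and Kcnq5 among them. Kcnq3 (ENSMUSG00000056258, chromosome 15) fell to 18.7 FPKM in knockdown, against 23.1 FPKM in wild type (log2 fold -0.31, with q = 0.0117 in the authors' deposited table). Kcnq5 (ENSMUSG00000028033, chromosome 1) fell to 16.3 FPKM in knockdown, against 20.1 FPKM in wild type (log2 fold -0.30, with q = 0.00833 in the authors' deposited table). Kcnq1 lay under 1 FPKM in both groups, and the noncoding Kcnq1ot1 had 1.27 FPKM in knockdown and 1.31 FPKM in wild type.

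Of the Kcnh subfamily, relatives of the ether-a-go-go channel of flies, Kcnh3 was the member that fell. It had 41.5 FPKM in knockdown and 50.02 FPKM in wild type (log2 fold -0.27, with q = 0.0411 in the authors' deposited table) and is the most abundant of its subfamily here. The authors' model of Kcnh3 runs on chromosome 15 from 99224976 to 99262041, beyond the GENCODE M21 end of the gene at 99242817, so it may hold reads from sequence downstream. The main model of Kcnh4 had a larger log2 fold, -0.42, at 4.502 FPKM in knockdown and 6.04 FPKM in wild type, and was not called (p = 0.284 in the authors' deposited table). Kcnh2, whose product repolarises heart muscle, was assembled together with Atg9b in this table, at 12.7 FPKM in knockdown and 10.7 FPKM in wild type for the merged model (log2 fold 0.24, p = 0.01395 and q = 0.313 in the authors' deposited table). Kcnh1, Kcnh5 and Kcnh7 had log2 folds between -0.09 and -0.06.

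The Kcna, Kcnb, Kcnc and Kcnd subfamilies had 0 models of 17 called by Cuffdiff, with 1 at an unadjusted p under 0.05. Kcna channels set the threshold and length of spikes, Kcnc channels allow fast firing, and Kcnd channels carry the transient A-type current of dendrites. Kcna2 was the most abundant Kcna member, at 38.4 FPKM in knockdown and 37.1 FPKM in wild type. Kcna1 and Kcna3 likewise had log2 folds of -0.06 and -0.02, and Kcna5 of -0.01. The main model of Kcnc1, known from fast-spiking interneurons, had 33.8 FPKM in knockdown and 36.3 FPKM in wild type, and Kcnc2 24.8 FPKM in knockdown and 25.6 FPKM in wild type. The 2 main A-type genes had positive folds and missed the threshold: Kcnd2 at 0.14 and Kcnd3 at 0.16 (p = 0.03685, q = 0.543 for Kcnd3 in the authors' deposited table).

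Among electrically silent Kv subunits 1 of 10 models fell, 0 rose, and the median log2 fold was -0.26, the lowest of the classes. Kcnv1 (ENSMUSG00000022342, chromosome 15) fell to 25.3 FPKM in knockdown, against 31.4 FPKM in wild type (log2 fold -0.31, with q = 0.0432 in the authors' deposited table). Its assembled model also extends past the GENCODE gene on both sides. Of the other models, 7 had negative folds and 2 positive ones. Kcng1 had 8.39 FPKM in knockdown and 10.2 FPKM in wild type, and Kcng3 1.86 FPKM in knockdown and 2.23 FPKM in wild type (q of 0.134 and of 0.205 in the authors' deposited table). Kcns1 and Kcns3 had log2 folds of -0.26 and -0.34, with unadjusted p of 0.03825 and 0.02095 in the authors' deposited table. Kcnf1, the most abundant of the class, had a positive fold of 0.17, at 43.8 FPKM in knockdown and 38.9 FPKM in wild type (p = 0.0277, q = 0.464 in the authors' deposited table). Kcng4, under 2 FPKM in both groups, had a log2 fold of 0.29 (q = 0.585 in the authors' deposited table).

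Among inward rectifiers 1 of 14 models rose, 0 fell and the median log2 fold was -0.02. Kcnj10 (ENSMUSG00000044708, chromosome 1) carries the potassium conductance of astrocytes. It rose to 47.4 FPKM in knockdown, against 39.4 FPKM in wild type (log2 fold 0.27, with q = 0.0197 in the authors' deposited table). Kcnj16, its usual partner in glia, had 6.62 FPKM in knockdown and 6.32 FPKM in wild type and was not called. Astrocyte markers lay higher in the same group: all 10 had positive folds, 2 of them called, with a median of 0.17 and sums of 743 FPKM in knockdown and 685 FPKM in wild type. Their part in the Kcnj10 result was not tested.

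The neuronal inward rectifiers were not called. Kcnj4, the most abundant, had 69.7 FPKM in knockdown and 71.0 FPKM in wild type. Of the G protein-gated channels, which open after inhibitory receptors are activated, Kcnj3 had 56.7 FPKM in knockdown and 57.5 FPKM in wild type for its main model. Kcnj6 had log2 folds of -0.06 and -0.03 for its 2 models. Kcnj9, the third abundant G protein-gated subunit, had 35.8 FPKM in knockdown and 41.4 FPKM in wild type (log2 fold -0.21, p = 0.0092 and q = 0.241 in the authors' deposited table). Kcnj11, the pore of neuronal ATP-sensitive channels, had 10.0 FPKM in knockdown and 11.4 FPKM in wild type (p = 0.0485, q = 0.621 in the authors' deposited table). Its partner Abcc8, the sulfonylurea receptor, fell to 4.74 FPKM in knockdown, against 6.37 FPKM in wild type (log2 fold -0.43, with q = 0.00456 in the authors' deposited table). Kcnj8 and Kcnj13, known from pericytes and from choroid plexus, lay near 1 FPKM in both groups.

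Among two-pore-domain channels 1 of 12 models rose and 1 fell. Kcnk15 (ENSMUSG00000035238, chromosome 2 from 163853651 to 163859746) had 2.11 FPKM in knockdown and 0.525 FPKM in wild type (log2 fold 2.01, p = 5e-05 and q = 0.00456 in the authors' deposited table). The p is the smallest the authors' test gave, and other models share it, Grin1, Lrrc55 and Abcc8 among them. Its level is low, and with 1 FPKM added to both groups the log2 fold was 1.03. Olfactory bulb markers moved in the same direction: Tbx21, a transcription factor of bulb projection neurons, had 2.83 FPKM in knockdown and 0.474 FPKM in wild type, and all 12 bulb marker models had positive folds with a median of 1.93. Of that list S100a5, Shisa3, Ms4a15, Scgn and Tbx21 were known to rise in these data when the list was drawn up. The part of the bulb markers in the Kcnk15 result was not tested.

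Kcnk2, a channel opened by stretch and fatty acids, fell to 15.0 FPKM in knockdown, against 18.2 FPKM in wild type (log2 fold -0.27, with q = 0.0695 in the authors' deposited table). Kcnk1, the most abundant member of the class, had 47.1 FPKM in knockdown and 46.8 FPKM in wild type. The TASK-type genes Kcnk3 and Kcnk9, related to Kcnk15, were not called: Kcnk3 had 7.30 FPKM in knockdown and 7.61 FPKM in wild type, and the main model of Kcnk9 had 15.9 FPKM in knockdown and 18.8 FPKM in wild type. Kcnk13 had 2.64 FPKM in knockdown and 2.06 FPKM in wild type (log2 fold 0.36, with q = 0.260 in the authors' deposited table).

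Among calcium- and sodium-activated channels 0 of 9 models were called by Cuffdiff, with 1 at an unadjusted p under 0.05. Kcnma1, the pore of the large-conductance BK channel, had 39.3 FPKM in knockdown and 40.1 FPKM in wild type. The main model of Kcnn2, a small-conductance SK channel behind the afterhyperpolarisation, had 23.2 FPKM in knockdown and 22.7 FPKM in wild type. Of the sodium-activated pair, Kcnt1 had 28.3 FPKM in knockdown and 28.0 FPKM in wild type for its main model. Kcnt2 had 7.92 FPKM in knockdown and 9.53 FPKM in wild type (log2 fold -0.27, p = 0.00475 and q = 0.158 in the authors' deposited table).

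Auxiliary subunits held 3 of the 10 calls among 12 models, 2 lower and 1 higher. Kcnmb4, the neuronal beta subunit that slows BK channels, fell to 63.4 FPKM in knockdown, against 76.0 FPKM in wild type (log2 fold -0.26, with q = 0.0913 in the authors' deposited table). Its level per Kcnma1 level was 1.61 in knockdown and 1.89 in wild type. That ratio also moved between comparisons of the same animals. In the comparisons with rescue it was 1.55 in knockdown and 2.07 in wild type. A BK gamma subunit from the partner list, Lrrc55, rose to 9.79 FPKM in knockdown, against 6.98 FPKM in wild type (log2 fold 0.49, with q = 0.00456 in the authors' deposited table). The other tested gamma subunit models were not called and had negative folds: -0.23 for Lrrc26, which was assembled together with 2 neighbours, and -0.21 for Lrrc38.

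The Kv beta subunits, which bind Kcna channels and in part speed their inactivation, were called in both directions. Kcnab1 fell to 24.1 FPKM in knockdown, against 28.9 FPKM in wild type in its main model (log2 fold -0.26, with q = 0.0888 in the authors' deposited table). Kcnab3 rose to 23.5 FPKM in knockdown, against 18.9 FPKM in wild type (log2 fold 0.31, with q = 0.0172 in the authors' deposited table). Kcnab2, the most abundant of all 89 members, had 107 FPKM in knockdown and 110 FPKM in wild type and was not called. Of the calcium-binding Kcnip proteins, which travel with Kcnd channels, Kcnip2 had 46.6 FPKM in knockdown and 51.7 FPKM in wild type, and Kcnip3 39.7 FPKM in knockdown and 39.4 FPKM in wild type. Kcnip4 had a log2 fold of -0.19 (p = 0.0257, q = 0.442 in the authors' deposited table) and Kcne1l, a low-abundance Kcne subunit, of 0.39 (p = 0.0214, q = 0.402 in the authors' deposited table).

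Among 14 tested models of partner genes outside the Kcn symbols, Lrrc55 was the 1 that rose, Abcc8 the 1 that fell, and the median log2 fold was -0.04. The Kcnd partners Dpp6 and Dpp10 had log2 folds of 0.02 and -0.03. In the Kcna complex, Lgi1 had -0.15 and Adam22 had -0.05. Lrrc52 was not tested, at under 0.03 FPKM.

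The rescue cortex was set against knockdown to ask which members move when Grin1 is partly restored. None of the 89 members was called by Cuffdiff, where 0.689% of all tested models were called. The count was also 0 with a minimum mean of 1 FPKM or of 10 FPKM, where 0.806% and 0.653% of all such models were called. At an unadjusted p under 0.05 there were 9 members, 4 higher and 5 lower, or 10.1% against 4.19% of all models. The median log2 fold of members was 0.03, beside -0.0056 over all models. The knockdown animals are those of the comparison above, so the folds of both comparisons are not independent.

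The M-current genes called lower in knockdown were among the members with a low unadjusted p. Kcnq5 had 19.2 FPKM in rescue and 16.6 FPKM in knockdown (log2 fold 0.20, p = 0.00995 and q = 0.592 in the authors' deposited table). Kcnq3 had 20.7 FPKM in rescue and 18.5 FPKM in knockdown (log2 fold 0.16, p = 0.04015 in the authors' deposited table). All 7 Kcnq models, the noncoding Kcnq1ot1 among them, had positive folds, between 0.03 and 0.20. The other genes that had fallen lay closer to their knockdown values. Kcnh3 had 42.5 FPKM in rescue and 41.7 FPKM in knockdown, and Kcnv1 26.5 FPKM in rescue and 25.4 FPKM in knockdown. Kcnk2 had 15.1 FPKM in both groups, the main model of Kcnab1 24.8 FPKM in rescue and 24.4 FPKM in knockdown, and Kcnmb4 66.5 FPKM in rescue and 63.1 FPKM in knockdown. None of these 5 had an unadjusted p under 0.05.

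Of the genes called higher in knockdown, Kcnk15 had 0.991 FPKM in rescue and 2.01 FPKM in knockdown. Its log2 fold of -1.02 was the most negative of the members, yet it was not called (p = 0.147 in the authors' deposited table). In this table the assembled Kcnk15 model ends at 163919718 and in the table of rescue and wild type at 163918982, both beyond the GENCODE end of the gene at 163859746, whereas in the first table it ends at 163858874. Kcnj10 had 41.5 FPKM in rescue and 47.5 FPKM in knockdown (log2 fold -0.19, p = 0.0115 and q = 0.633 in the authors' deposited table). Kcnab3 had 21.0 FPKM in rescue and 23.5 FPKM in knockdown (log2 fold -0.16, p = 0.0497 in the authors' deposited table). Bulb and astrocyte markers lay lower beside them: 10 of 12 bulb marker models fell, with sums of 73.1 FPKM in rescue and 122 FPKM in knockdown, and 2 of 11 astrocyte marker models fell, with sums of 682 FPKM in rescue and 755 FPKM in knockdown. Their part in these values was not tested.

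Members that had not been called in knockdown gave the other low p values in rescue. The smallest was that of Kcna5, a Kv channel better known from heart and vessels, at 1.64 FPKM in rescue and 2.205 FPKM in knockdown (log2 fold -0.42, p = 0.0022 and q = 0.243 in the authors' deposited table). Kcnh5 had 9.62 FPKM in rescue and 8.15 FPKM in knockdown (log2 fold 0.24, p = 0.0026 and q = 0.271 in the authors' deposited table). Kcne1l, Kcng4 and Kcns3, all under 4 FPKM, had log2 folds of -0.50, -0.37 and 0.31 (q = 0.369, q of 0.480 and of 0.958 in the authors' deposited table). The BK gamma gene Lrrc55 was the 1 of 13 tested partner models called, at 7.61 FPKM in rescue and 9.77 FPKM in knockdown (log2 fold -0.36, with q = 0.0774 in the authors' deposited table).

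**Figure D3:**
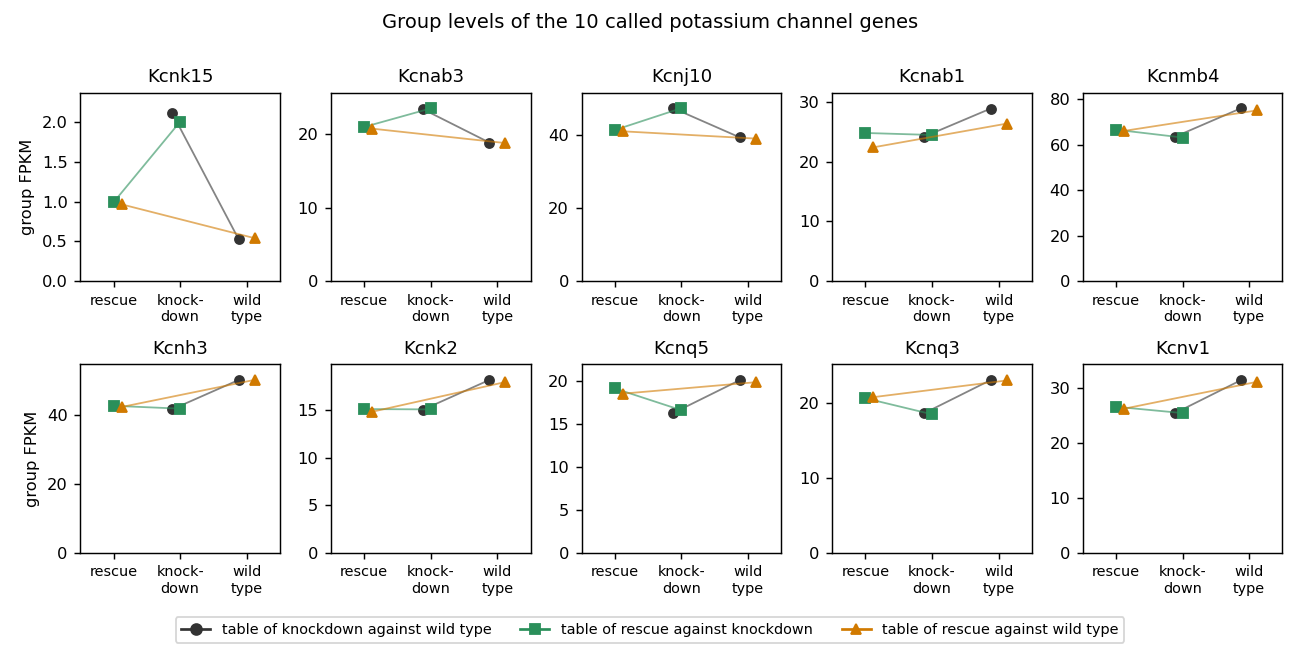
Group FPKM (vertical axis, from 0) in rescue, knockdown and wild type of the 10 genes called in knockdown against wild type; each marker is a group value from 1 of the 3 tables and lines join both groups of a table. Kcnk15 has 0.991 and 0.965 FPKM in rescue, 2.11 and 2.01 FPKM in knockdown and 0.525 and 0.539 FPKM in wild type.

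The rescue cortex was also set against wild type, to ask which differences are present after rescue. Again 0 of 91 members were called by Cuffdiff, where 0.841% of all models were called. It was also 0 with a minimum mean of 1 FPKM or of 10 FPKM, where 0.969% and 0.79% of all such models were called. At an unadjusted p under 0.05 there were 11 members, 1 higher and 10 lower, or 12.1% against 4.32% of all models. The 1 higher was Kcnh5, at 9.90 FPKM in rescue and 8.71 FPKM in wild type (log2 fold 0.18, p = 0.02385 and q = 0.879 in the authors' deposited table). The median log2 fold of members was -0.03, beside -0.0080 over all models. This comparison shares its wild type animals with the first and its rescue animals with the second.

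The values nearest the threshold were those of Kcnk2, at 14.8 FPKM in rescue and 18.0 FPKM in wild type (log2 fold -0.28, p = 0.0011 and q = 0.124 in the authors' deposited table), and of the main model of Kcnh4. Kcnh4 had 4.70 FPKM in rescue and 6.05 FPKM in wild type (log2 fold -0.36, p = 0.00115 and q = 0.126 in the authors' deposited table). Kcnh3 had 42.2 FPKM in rescue and 50.1 FPKM in wild type (log2 fold -0.25, with q = 0.209 in the authors' deposited table). Kcnv1 had 26.2 FPKM in rescue and 31.0 FPKM in wild type (log2 fold -0.25, with q = 0.406 in the authors' deposited table), and the main model of Kcnab1 22.4 FPKM in rescue and 26.3 FPKM in wild type (log2 fold -0.24). In all 5 the rescue value was the lower one, and none passed the threshold. Markers moved in this comparison too: 8 of 12 striatal marker models fell, with a median log2 fold of -0.58 and sums of 166 FPKM in rescue and 223 FPKM in wild type. Of 10 excitatory cortical markers Cuffdiff called 0, with 1 at an unadjusted p under 0.05 and sums of 1552 FPKM in rescue and 1655 FPKM in wild type. Blood cell markers rose in 3 of 5 models, with sums of 163 FPKM in rescue and 99.7 FPKM in wild type. Their part in the channel values was not tested.

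Kcnq5 had 18.5 FPKM in rescue and 19.9 FPKM in wild type, and Kcnq3 20.8 FPKM in rescue and 23.0 FPKM in wild type. Their log2 folds were -0.10 and -0.15 (unadjusted p of 0.201 and 0.04995 in the authors' deposited table). Kcnab3 had 20.8 FPKM in rescue and 18.8 FPKM in wild type, and Kcnj10 41.1 FPKM in rescue and 39.1 FPKM in wild type (log2 fold 0.07). Of 11 astrocyte marker models 7 had negative folds and 4 positive ones, 1 of them called, with a median of -0.06. Their sums were 673 FPKM in rescue and 686 FPKM in wild type, and their part in the Kcnj10 value was not tested. Kcnk15 had 0.965 FPKM in rescue and 0.539 FPKM in wild type, a log2 fold of 0.84 that was not called (p = 0.356 in the authors' deposited table). Beside it 9 of 11 olfactory bulb marker models rose, with a median of 1.10 and sums of 72.2 FPKM in rescue and 43.7 FPKM in wild type, and their part in the Kcnk15 value was not tested. The silent subunits had the lowest class median, -0.10, with 9 of 10 folds negative. Among them were Kcng2 at -0.53, Kcns1 at -0.38 and Kcng1 at -0.31 (unadjusted p of 0.00945, 0.0055 and 0.0021 in the authors' deposited table). Kcna5 had a log2 fold of -0.47 (q = 0.215 in the authors' deposited table).

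**Figure D4:**
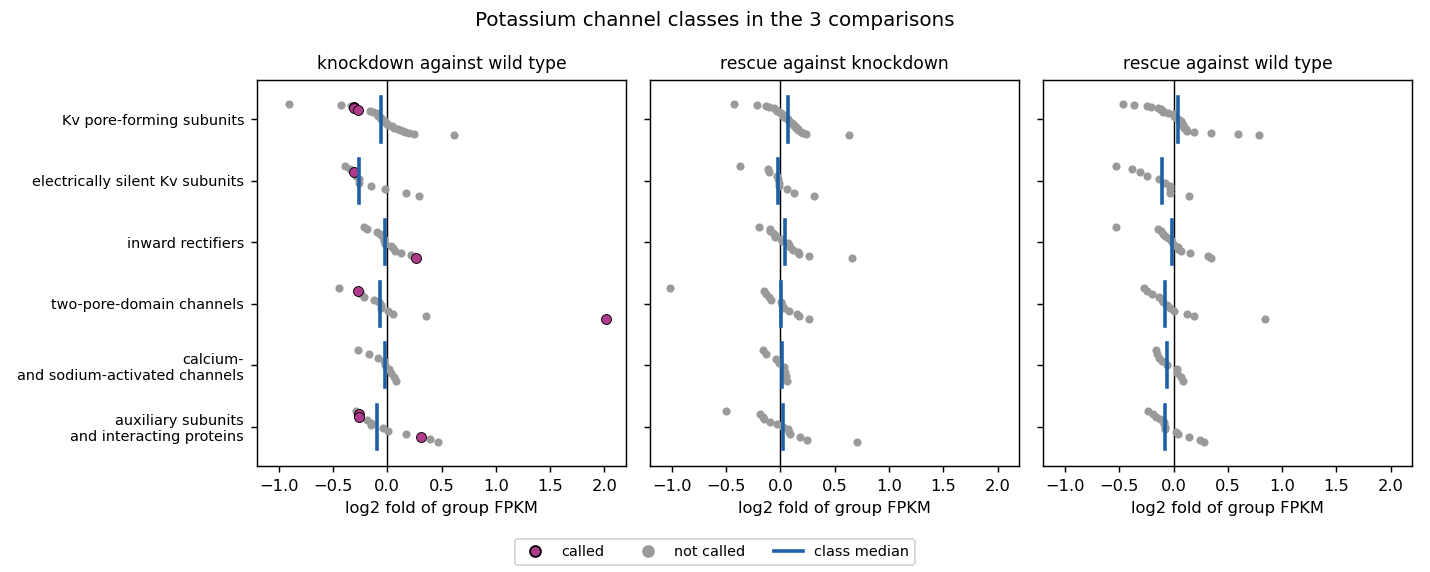
Log2 fold of group FPKM (horizontal axis) of potassium channel models by class in the 3 comparisons; points are models, purple where called, and blue bars are class medians. Calls are present in knockdown against wild type alone, and the silent Kv subunits have the lowest class median there, at -0.26.

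A group's own value also moved between tables, which the authors assembled and normalised separately from reads of the same animals. These shifts leave out variation between animals and so are no measure of replicate error. Over 172 pairs of values of the same group in 2 tables, for members with a single model and a mean of at least 1 FPKM, the median absolute log2 difference was 0.02. The widest of these was 0.47, for Kcnk10. Genes with several models in a table are outside these pairs. The main model of Kcnh7 had 12.5 FPKM and 20.5 FPKM in knockdown, and 22.3 FPKM and 15.0 FPKM in rescue. Grin1, no member, had 56.7 FPKM and 65.7 FPKM in knockdown, and 86.7 FPKM and 78.0 FPKM in rescue. For 8 of the 10 called genes the wild type pair could be formed, and its difference was at most 0.02 on the log2 scale. Kcnab1 has 2 models, and its main model had 28.9 FPKM in wild type in one table and 26.3 FPKM in the other.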

How the data were processed

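Poly(A) RNA of frontal cortex from 12 mice was sequenced. Reads were processed with TopHat2 2.1.0, Cufflinks 2.2.1.0 and Cuffdiff 2.2.1.3 on mm10, per the submitters' processing notes; the gene annotation is not given in the sources used here. The authors deposited 3 tables, 1 per pair of groups, each with 1 FPKM value per group, a p-value and a q-value for each assembled gene model. A deposited log2 fold was read for both comparisons with wild type and not for rescue against knockdown. Animals and read depths are not resolved in these tables, so no replicate SD, interval or detection floor is given, and models may span neighbouring genes. FPKM compares levels between genes per length. Fold changes were recomputed as the log2 ratio of the deposited FPKM values. The strand setting of the counting is not given in the sources used here, so overlapping genes cannot be told apart.

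Tables were read with Python 3.11.15, pandas 2.3.3 and numpy 2.4.6 and drawn with matplotlib 3.10.9. Models with test status OK were kept. A model was called at p under 0.05 and q under 0.10, with q over the whole table. Gene positions came from GENCODE M21, promoter windows from RefSeq on GRCm38.p6. The summary step was tested on simulated data. Named were Grin1, called members, members with p under 0.05, the most abundant member of each subfamily and the 6 largest rises and falls per table with a mean of at least 1 FPKM; further members are described as examples of their class and were chosen after their values were seen. The members, gene lists and rules were chosen with earlier results of these data known. Alternatives were a q threshold of 0.05, minimum levels, pseudocounts of 0.1 and 1 FPKM, centring, models with 1 symbol and 1 model per gene. Some members are not reported here by name.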

Additional observations from a re-analysis of the deposited data

How the results depend on the processing

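No paired analysis was possible because the deposited tables hold 1 value per group and no value per animal; leaving out each animal was not run for the same reason. In knockdown against wild type, 10 members were called, and 7 with q under 0.05, where Kcnab1, Kcnk2 and Kcnmb4 missed the threshold (q of 0.0888, 0.0695 and 0.0913 in the authors' deposited table). The count was 10 with a minimum mean of 1 FPKM, with the adjustment recomputed, with single-symbol models and with 1 model per gene, and 9 with a minimum of 10 FPKM, chosen after seeing the data. Both other comparisons had 0 called members under each of these settings. Of the 129 named log2 folds, those of the 10 called models were checked for sign alone, and the rest against a limit of 0.0705. This limit is the SD of a group's own value between tables, which leaves out variation between animals. A pseudocount of 1 FPKM moved 27 of the uncalled folds by more than the limit, and 0.1 FPKM moved 4, while centring moved 0. The called fold of Kcnk15 is outside these counts, although adding 1 FPKM lowered it by more than the limit. No named fold changed sign. For pseudocounts this was fixed in advance, since the same amount added to both groups keeps the sign of a fold. Centring took away a median of -0.0069 in knockdown against wild type, too small to reverse any called fold. The sign check of the called models therefore could not have failed. With 1 FPKM added, Kcnk15 had a log2 fold of -0.59 between rescue and knockdown and of 0.35 between rescue and wild type.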

Other observations

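Of the 8 models on chromosome 15, which stand for 6 genes, 3 were called in knockdown against wild type, all lower: Kcnh3, Kcnv1 and Kcnq3. Over all 737 tested models of that chromosome 1.36% were called lower and 2.99% in either direction. Chromosome 1 held 3 called genes among 9 models, Kcnq5 and Kcnk2 lower and Kcnj10 higher, where 1.07% of all 1124 tested models of the chromosome were called lower and 3.11% in either direction. Chromosome 2, which carries Grin1, held the most members, 13 models of 10 genes, with Kcnk15 called, where 2.83% of all 1451 tested models were called in either direction. The member nearest to Grin1 was Kcnt1, at a distance of 0.573 Mb, and it was not called. These positions were looked at after the values were seen.

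Of the 94 symbols listed, 17 were not tested in any comparison. Among them were Kcne1 and Kcne2, subunits best known from the heart, Kcnk18, known from sensory neurons, and Kcnn4, known from blood cells and epithelia. The TATA element TATAAA was found in 5.19% of the 77 member promoter windows and in 13.6% of all 32851 windows.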
